A study of Mus musculus with 6 samples.

Results

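The genes described here encode subunits of respiratory complexes III and IV and of ATP synthase, measured in mouse colorectal tumours grown at 2 injection sites. They were taken by symbol, as every gene on the array whose name starts with Uqcr, Cox4, Cox5, Cox6, Cox7, Cox8 or Atp5, plus Cyc1. This gave 44 of 22180 genes with a probe set of their own: 9 of complex III, 17 of complex IV and 18 of ATP synthase. Of these, 42 are protein-coding and 2, Uqcrh-ps1 and Atp5c1-ps, are annotated as pseudogenes. Tumours of the white adipose group came from mouse colorectal cancer injected into white adipose tissue, and those of the non-adipose group from the same kind of cancer injected into non-adipose tissue. Each group had 3 mice and 3 arrays, labelled as biological replicates, of tumours taken at a size of 1 to 1.5 cm3. What was injected (a cell line or tumour tissue), the mouse strain, age and sex, and the anatomical sites are not stated in the labels.

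The respiratory chain of the inner mitochondrial membrane passes electrons from nutrients to oxygen and pumps protons as it does so. Complex III passes electrons from ubiquinol to cytochrome c, complex IV passes them from cytochrome c to oxygen, and ATP synthase lets the protons flow back to make ATP. Most subunits are encoded in the nucleus and a few catalytic ones in mitochondrial DNA, and several complex IV subunits exist as a common isoform and as an isoform restricted to muscle, testis or other tissues. Tumours rely on this system to differing degrees beside glycolysis, and fatty acid oxidation delivers its electrons to the same chain.

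The arrays were alike in level, with medians between 5.66 and 5.69 on the log2 scale and correlations of 0.983 to 0.995 across genes. White adipose replicate 1 stood apart in skin markers. The 4 epidermal genes measured averaged 9.79 there, against 5.29 and 5.37 in white adipose replicates 2 and 3 and 5.36 to 6.02 in non-adipose tumours. Skeletal muscle markers averaged 5.51 to 5.64 in white adipose and 5.52 to 6.75 in non-adipose tumours. The adipocyte hormone gene Adipoq, a defining marker of fat, ran from 4.10 to 4.27 in white adipose and lay at 4.14 in non-adipose tumours, which is dim (percentile 15.6 by signal among all genes). The 8 white adipocyte markers averaged 5.37, 5.40 and 5.63 in white adipose replicates 1, 2 and 3 and 5.39 to 5.45 in non-adipose tumours. Of these, 7 were higher and 1 lower in white adipose, with a median difference of 0.037, and white adipose replicate 3 was the highest array in 5. Of the labelled tissue, the epithelial keratin gene Krt8 was bright, at 9.70 to 10.04 in white adipose and 9.46 to 9.73 in non-adipose tumours. Of the 8 carcinoma epithelium markers measured, only Krt18 was similarly bright, at signal percentile 94.9. The others ranged from percentile 29.1 (Epcam) to 66.9 (Cdh1). The intestinal transcription factor gene Cdx2 was dim, at 5.08 to 5.48 in white adipose and 5.32 to 5.63 in non-adipose tumours. Vil1, which encodes villin of the brush border, was at 4.39 to 4.88 in white adipose and 4.57 to 4.81 in non-adipose tumours. Without detection calls, dim values such as these may be background. In whole tumours, fewer cells of a type and less RNA per cell cannot be told apart.

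None of the 44 genes differed between the sites by the test. By limma with Benjamini-Hochberg adjustment over all genes, 0 members were higher and 0 lower in white adipose tumours, as for the whole array, where 0% of genes passed. At an unadjusted p under 0.05 the counts were also 0 higher and 0 lower, beside 1.66% of all genes higher and 2.13% lower, 3.79% together. The smallest p of a member was 0.0544, for Cox6a2, with an adjusted p of 0.936. In 21 members the mean was higher in white adipose tumours and in 23 it was lower, beside 49.8% of all genes with a higher mean, and the median log2 difference was -0.0088 over the members and -0.00043 over all genes. The groups of arrays overlapped in every member, beside the 7.31% of all genes whose groups did not overlap. In 3 members, Atp5a1, Atp5o and Cox6a2, the groups met at exactly the same deposited value. With any 1 array left out, 3 to 6 members did not overlap, beside 14.1% to 23.8% of all genes, and 0 to 2 members were at an unadjusted p under 0.05, beside 2.89% to 8.12% of all genes. The highest count of each came when non-adipose replicate 2 was removed, where 15.8% of all genes did not overlap and 4.04% were at that p. When the array with the skin markers was removed, 3 members did not overlap and 0 were at that p, beside 23.8% and 8.12% of all genes.

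The differences were also bounded. The 95% confidence interval of the log2 difference had a median half-width of 0.19 over the members, a factor of 1.14 in signal, and of 0.24 over all genes. It lay entirely within 0.5 of 0, a change of at most 1.41-fold either way, for 41 of 44 members and for 79% of all genes. The exceptions were Atp5g1, with an interval from -0.063 to 0.67, Cox6a2, from -0.54 to 0.0069, and the pseudogene Uqcrh-ps1, from -0.50 to 0.45. The intervals are for 1 gene at a time and were not adjusted for their number. The members lay at a median percentile of 80.5 by mean signal, and all 44 were tested, since no filter on dim values was applied. The 41 thus include dim members such as Cox7b2 and Cox8c, at signal percentiles 3.79 and 13.2, where values may be background. A narrow interval there bounds the array signal and may not bound the RNA. With dim genes left out, the interval lay within 0.5 of 0 for 37 of 39 members.

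**Figure D1:**
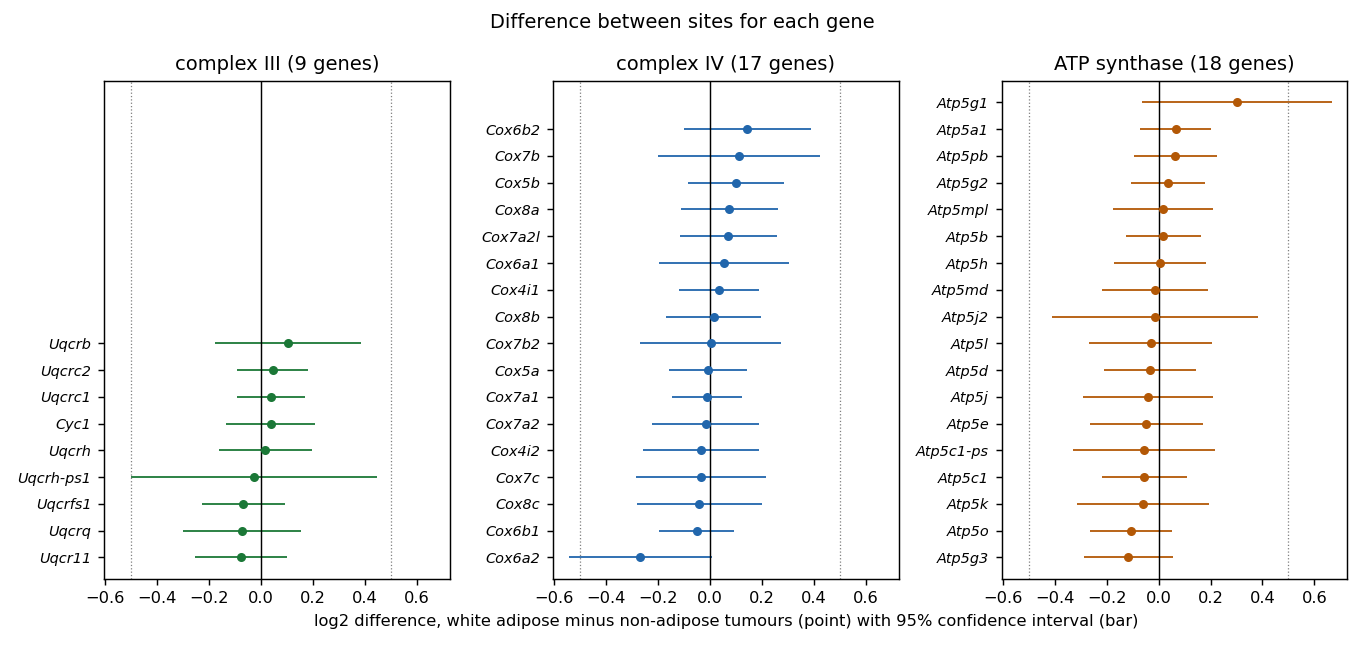
Log2 difference of each gene, white adipose minus non-adipose tumours, with limma's 95% confidence interval (3 arrays per site), in 1 panel for each complex; dotted lines mark 0.5 on either side of 0. Every interval includes 0, and only those of Atp5g1, Cox6a2 and Uqcrh-ps1 reach past a dotted line.

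Complex III had a median log2 difference of 0.018 over its 9 members, with 5 higher and 4 lower in white adipose tumours, and none at an unadjusted p under 0.05. Its electron carrier genes did not pass. Cyc1, which encodes cytochrome c1, gave a log2 signal of 7.66, 7.71 and 7.72 in white adipose tumours and 7.70, 7.73 and 7.55 in non-adipose tumours. Uqcrfs1, which encodes the Rieske iron-sulfur protein, gave 6.55, 6.42 and 6.50 in white adipose and 6.62, 6.55 and 6.50 in non-adipose tumours, a difference of -0.068 (SE 0.066). The values of each gene overlapped between the sites, and non-adipose replicate 3 had the lowest Cyc1 signal of the 6 arrays.

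The core proteins of complex III, encoded by Uqcrc1 and Uqcrc2, had the narrowest range over the arrays in this complex. Uqcrc1 gave 8.93, 8.89 and 8.94 in white adipose and 8.89, 8.86 and 8.89 in non-adipose tumours, a range of 0.074 over the 6 arrays. Uqcrc2 gave 9.56, 9.51 and 9.48 in white adipose and 9.48, 9.47 and 9.47 in non-adipose tumours, a range of 0.097. Both means were slightly higher in white adipose tumours, by 0.039 (SE 0.053) and 0.045 (SE 0.056), less than a standard error.

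The small subunits of complex III divided in sign. Uqcr11 gave 7.09, 7.16 and 7.12 in white adipose and 7.11, 7.31 and 7.18 in non-adipose tumours, a difference of -0.077 (SE 0.073) and the smallest p of the complex (0.326 by limma). Uqcrb, a subunit near the quinone site, gave 10.57, 10.62 and 10.97 in white adipose and 10.67, 10.55 and 10.62 in non-adipose tumours. Its difference of 0.11 (SE 0.12) rested on white adipose replicate 3 and was -0.017 without that array. Uqcrq differed by -0.071 (SE 0.093) and Uqcrh, the hinge protein gene, by 0.018 (SE 0.074). The pseudogene Uqcrh-ps1, at percentile 6.61 of all genes by signal, gave 3.25, 2.95 and 3.28 in white adipose and 3.53, 3.22 and 2.81 in non-adipose tumours, and had the widest spread within groups among complex III members.

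Complex IV had a median log2 difference of 0.0030 over its 17 members, with 9 higher and 8 lower. For the 10 members that are no tissue-restricted isoform the median was 0.045, with 6 higher and 4 lower, and none was at an unadjusted p under 0.05. Cox5b, a zinc-binding subunit, had the smallest p among these. It gave 9.22, 9.29 and 9.15 in white adipose and 9.15, 9.01 and 9.20 in non-adipose tumours, with means of 9.22 ± 0.072 in white adipose and 9.12 ± 0.095 in non-adipose tumours (SD, n = 3 each) and a difference of 0.10 (SE 0.076, limma adjusted p = 0.936). The groups overlapped, with non-adipose replicate 2 lowest. Cox5a differed by -0.0074 (SE 0.061), and Cox7c by -0.035 (SE 0.10).

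Cox5b and Cox7b each had a second, dimmer probe set whose difference had the opposite sign. So did Atp5d (-0.033 on the brighter, 0.019 on the dimmer) and Atp5h (0.0051 and -0.017) of ATP synthase. Of the 6 members with several probe sets, only Atp5e and Atp5g2 had the same sign on both. The dimmer probe set of Cox5b gave 5.29, 4.77 and 4.48 in white adipose and 4.97, 4.97 and 5.30 in non-adipose tumours, a difference of -0.23. The brighter probe set of Cox7b, which encodes a small membrane subunit, gave 8.35, 8.49 and 8.80 in white adipose and 8.49, 8.49 and 8.32 in non-adipose tumours, a difference of 0.11 (SE 0.13). The dimmer one gave 4.90, 5.12 and 5.10 in white adipose and 5.08, 5.79 and 5.07 in non-adipose tumours, a difference of -0.27. Within each gene the probe sets thus disagreed in sign, and non-adipose replicate 2 was the highest array on the dimmer probe set of Cox7b.

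The common isoforms differed by at most 0.113 in either direction. Cox4i1, the common form of the largest nuclear-encoded subunit, gave 8.97, 8.87 and 8.81 in white adipose and 8.87, 8.83 and 8.85 in non-adipose tumours. Cox6a1 gave 11.27, 11.37 and 11.21 in white adipose and 11.21, 11.40 and 11.06 in non-adipose tumours. Each gene's groups overlapped, with differences of 0.035 (SE 0.064) and 0.055 (SE 0.10). Cox8a gave 9.73, 9.84 and 9.71 in white adipose and 9.60, 9.80 and 9.66 in non-adipose tumours. Cox6b1 gave 8.66, 8.62 and 8.63 in white adipose and 8.71, 8.73 and 8.62 in non-adipose tumours. These differed by 0.076 (SE 0.077) and -0.051 (SE 0.060), and both overlapped between the sites. Cox7a2 gave 8.58, 8.70 and 8.72 in white adipose and 8.78, 8.72 and 8.55 in non-adipose tumours, a difference of -0.016 (SE 0.084). Over the 6 common isoforms the median difference was 0.045, with 4 higher and 2 lower. Cox7a2l, whose protein joins complexes III and IV into supercomplexes, gave 7.75, 7.62 and 7.62 in white adipose and 7.67, 7.49 and 7.62 in non-adipose tumours, a difference of 0.072 (SE 0.076).

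Cox6a2, the heart and skeletal muscle isoform of subunit 6a, had the smallest p of all members. It gave 5.60, 5.76 and 5.62 in white adipose and 6.15, 5.76 and 5.88 in non-adipose tumours, with means of 5.66 ± 0.089 in white adipose and 5.93 ± 0.20 in non-adipose tumours (SD, n = 3 each). The log2 difference was -0.27 (SE 0.11), 1.20-fold lower in white adipose tumours, and did not pass (limma adjusted p = 0.936). White adipose replicate 2 and non-adipose replicate 2 shared 1 value, and non-adipose replicate 1 was the highest. The difference was -0.35 without non-adipose replicate 2 and -0.16 without non-adipose replicate 1.

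Skeletal muscle markers, like Cox6a2, were higher in non-adipose replicates 1 and 3 than on the other arrays. The 12 markers averaged 5.64, 5.59 and 5.51 in white adipose tumours and 6.26, 5.52 and 6.75 in non-adipose tumours, with 11 lower and 1 higher in white adipose and a median difference of -0.56. None of the 12 passed, and 1, Ckm, was lower at an unadjusted p under 0.05, beside 2.13% of all genes lower at that p. Ckm, the muscle creatine kinase gene, gave 5.59, 5.65 and 5.55 in white adipose and 6.16, 5.73 and 6.45 in non-adipose tumours. Non-adipose replicate 2 was thus the lowest non-adipose array for the marker mean, for Ckm and for Cox6a2. Among non-adipose arrays the marker mean was highest in replicate 3 and Cox6a2 in replicate 1. Of 6 cardiac muscle markers, 4 were higher and 2 lower in white adipose tumours, with a median difference of 0.013, and none passed. The cardiac genes Myh6 and Tnni3, at 0.52 (SE 0.15) and 0.21 (SE 0.074), were higher at an unadjusted p under 0.05, beside 1.66% of all genes. Their groups did not overlap, beside 7.31% of all genes. The part of muscle tissue in the Cox6a2 values was not tested.

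The other muscle-type isoforms had smaller differences between the sites. Cox7a1, the muscle and brown fat isoform of subunit 7a, gave 5.88, 5.82 and 5.89 in white adipose and 5.88, 5.85 and 5.89 in non-adipose tumours, a difference of -0.010 (SE 0.056) and a range of 0.078 over the 6 arrays. Cox8b, the muscle and brown fat isoform of subunit 8, gave 4.67, 4.74 and 4.74 in white adipose and 4.79, 4.58 and 4.73 in non-adipose tumours, a difference of 0.015 (SE 0.075). Both genes overlapped between the sites. In both, non-adipose replicate 2 was the lowest non-adipose array, but for Cox7a1 white adipose replicate 2 was lower still. Cox8b lay at signal percentile 24.25, where values may be background. The 6 markers of brown and beige fat averaged 4.56 to 4.76 in white adipose and 4.57 to 4.75 in non-adipose tumours. Of these, 3 were higher and 3 lower in white adipose, with a median difference of 0.012, and none passed. Dio2, at 0.37 (SE 0.11), was higher at an unadjusted limma p under 0.05, beside 1.66% of all genes. Its groups did not overlap, beside 7.31% of all genes. Ppargc1a was lower, at -0.48 (SE 0.30). Ucp1, the uncoupling protein gene that defines brown fat, lay at 4.74 to 4.86 in white adipose and 4.58 to 4.85 in non-adipose tumours. The median signal percentile of the 6 was 25.4, where values may be background.

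**Figure D2:**
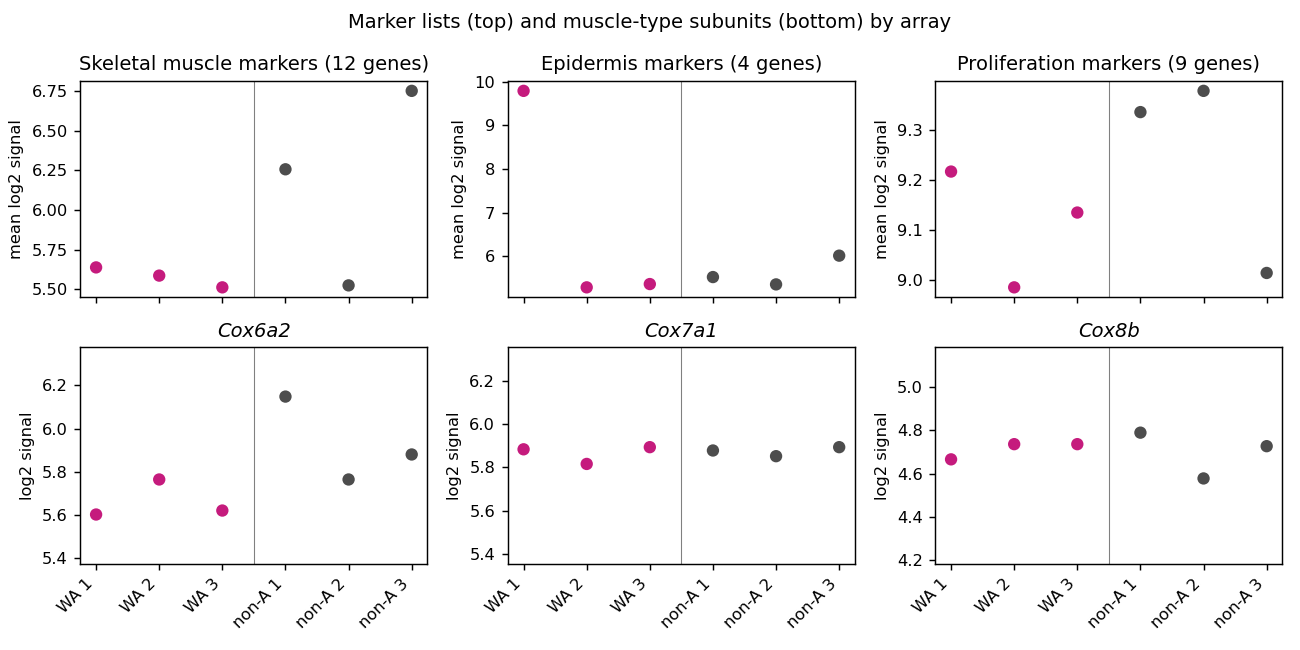
Mean log2 signal of 3 marker lists (top row) and log2 signal of the muscle-type subunits Cox6a2, Cox7a1 and Cox8b (bottom row, each panel 1 log2 unit high) on each array; WA, white adipose and non-A, non-adipose, with replicate numbers. Skeletal muscle markers and Cox6a2 were higher in non-adipose replicates 1 and 3 than on the other 4 arrays, whereas Cox7a1 stayed between 5.82 and 5.89.

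The remaining tissue-restricted isoforms did not pass either. Cox6b2, known from testis, gave 5.0027, 5.05 and 5.02 in white adipose and 4.75, 5.09 and 4.79 in non-adipose tumours, a difference of 0.15 (SE 0.10, limma adjusted p = 0.936). Non-adipose replicate 2 was the highest array. Without it the difference was 0.25, at an unadjusted p under 0.05, beside 4.04% of all genes in that setting. The groups then did not overlap, beside 15.8% of all genes. Cox6b2 lay at signal percentile 29.15, where values may be background. Cox4i2, the isoform of lung and hypoxic cells, gave 5.72, 5.93 and 5.85 in white adipose and 5.73, 5.98 and 5.89 in non-adipose tumours, a difference of -0.034 (SE 0.091). Cox8c gave 3.95, 3.89 and 4.01 in white adipose and 3.82, 3.98 and 4.16 in non-adipose tumours. Cox7b2 gave 2.68, 2.62 and 2.62 in white adipose and 2.78, 2.40 and 2.75 in non-adipose tumours. Cox8c and Cox7b2, also known from testis, were dim, at signal percentiles 13.2 and 3.79, where values may be background.

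ATP synthase had a median log2 difference of -0.022 over its 18 members, with 7 higher and 11 lower in white adipose tumours, none at an unadjusted p under 0.05. The genes of the catalytic head did not pass. Atp5a1, the alpha subunit gene, gave 10.78, 10.84 and 10.81 in white adipose and 10.75, 10.78 and 10.70 in non-adipose tumours, a difference of 0.066 (SE 0.057). Atp5b, the catalytic beta subunit gene, gave 11.42, 11.43 and 11.47 in white adipose and 11.48, 11.43 and 11.36 in non-adipose tumours, a difference of 0.018 (SE 0.059). The alpha subunit groups met at 1 shared value and the beta subunit groups overlapped. In the central stalk, Atp5c1, Atp5d and Atp5e differed by -0.055 (SE 0.067), -0.033 (SE 0.072) and -0.048 (SE 0.089), all 3 lower in white adipose tumours by less than a standard error.

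The ring of c subunits, which turns as protons pass, is encoded by 3 genes whose mature proteins are the same. Atp5g1 had the largest difference of the 44 members. It gave 6.20, 5.80 and 5.97 in white adipose and 5.85, 5.79 and 5.43 in non-adipose tumours, with means of 5.99 ± 0.20 in white adipose and 5.69 ± 0.23 in non-adipose tumours (SD, n = 3 each). The difference of 0.30 (SE 0.15), 1.23-fold higher in white adipose tumours, did not pass (limma adjusted p = 0.936). The groups overlapped, white adipose replicate 1, the array with the skin markers, was the highest and non-adipose replicate 3 the lowest. Without the first the difference was 0.20, and without the second it was 0.17.

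The other c subunit genes had smaller differences, 1 of each sign. Atp5g3 gave 8.65, 8.51 and 8.61 in white adipose and 8.69, 8.79 and 8.64 in non-adipose tumours, a difference of -0.12 (SE 0.071, limma adjusted p = 0.936). Atp5g2 gave 10.90, 10.99 and 10.90 in white adipose and 10.92, 10.90 and 10.85 in non-adipose tumours, a difference of 0.036 (SE 0.059). Both overlapped between the sites, Atp5g3 only at white adipose replicate 1 and non-adipose replicate 3. Whether the c subunit genes differed from one another in their response was not tested.

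**Figure D3:**
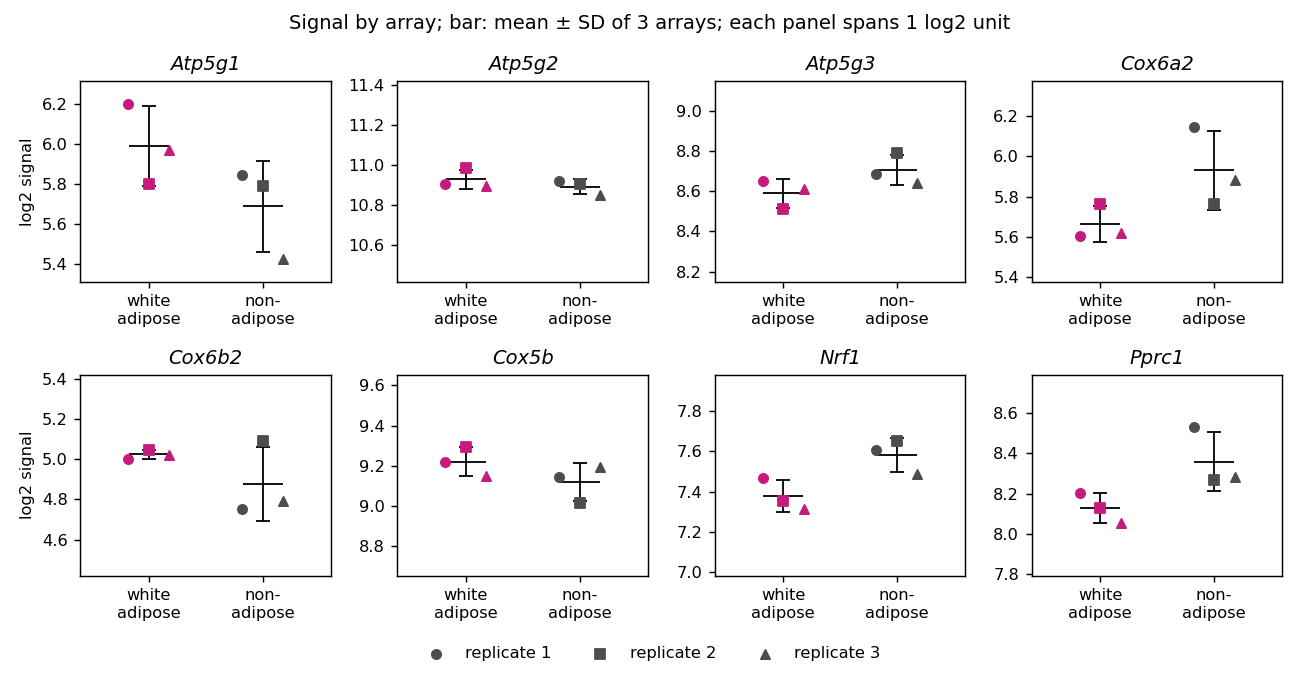
Log2 signal of 6 subunit genes and of the regulators Nrf1 and Pprc1 on each array, white adipose left and non-adipose right, with the mean ± SD of 3 arrays; marker shapes show the replicate number and each panel spans 1 log2 unit. The groups of the 6 subunit genes overlap or meet, and those of Nrf1 and Pprc1 do not.

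The peripheral stalk, which holds the head still against the turning ring, had members of either sign. Atp5o, which encodes the stalk protein that binds the head, gave 6.06, 5.97 and 6.08 in white adipose and 6.20, 6.08 and 6.16 in non-adipose tumours, a difference of -0.11 (SE 0.065, limma adjusted p = 0.936). Its groups met at 1 value, that of white adipose replicate 3 and non-adipose replicate 2. Atp5pb, the b subunit gene, gave 8.98, 8.96 and 9.08 in white adipose and 8.98, 8.98 and 8.87 in non-adipose tumours, a difference of 0.064 (SE 0.066). Atp5h and Atp5j, the d subunit and coupling factor 6 genes, differed by 0.0051 (SE 0.072) and -0.041 (SE 0.10).

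The small membrane subunits varied more within groups than between them. Atp5j2, the f subunit gene, gave 5.65, 5.72 and 5.30 in white adipose and 5.65, 5.76 and 5.30 in non-adipose tumours, a difference of -0.014 (SE 0.16). Replicate 3 was the lowest array at each site, and the SD within groups was 0.23 in white adipose and 0.24 in non-adipose tumours, far above the difference. The others were Atp5k at -0.059 (SE 0.10), Atp5l at -0.030 (SE 0.097), Atp5md at -0.013 (SE 0.084) and Atp5mpl at 0.018 (SE 0.079). The pseudogene Atp5c1-ps, at percentile 7.17 of all genes, differed by -0.054 (SE 0.11).

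The median of the ATP synthase genes varied more between arrays of the non-adipose group than between white adipose arrays. The same held for the median of the 6 common isoforms of complex IV. With each gene set to its own mean over the 6 arrays, the median of the 18 genes was 0.0011, -0.010 and 0.035 in white adipose replicates 1, 2 and 3. In the non-adipose replicates it was 0.025, 0.049 and -0.086. Non-adipose replicate 3 was the lowest of the 6 arrays in 8 of the 18 genes, and non-adipose replicate 2 was the highest in 7, so the widest gap lay within the non-adipose group. Over all 22180 genes, non-adipose replicate 3 was the lowest in 3406 and non-adipose replicate 2 the highest in 4013. Complex III medians ran from -0.011 to 0.044 in white adipose and from -0.022 to 0.018 in non-adipose tumours. Over all 17 members, complex IV medians ran from -0.011 to 0.010 in white adipose and from -0.011 to 0.0041 in non-adipose tumours. Over the 6 common isoforms of complex IV, the median was 0.0025, 0.056 and -0.0925 in non-adipose replicates 1, 2 and 3. It ran from -0.023 to 0.016 in white adipose tumours. Non-adipose replicate 3 was the lowest array in 4 of these 6 genes. Over the 7 tissue-restricted isoforms, the median in that array was 0.036. Proliferation markers were also high in non-adipose replicates 1 and 2 and low in replicate 3, with mean signals of 9.22, 8.98 and 9.13 in white adipose and 9.34, 9.38 and 9.01 in non-adipose tumours. Skeletal muscle markers were highest in non-adipose replicate 3. The part of either in the ATP synthase values was not tested.

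**Figure D4:**
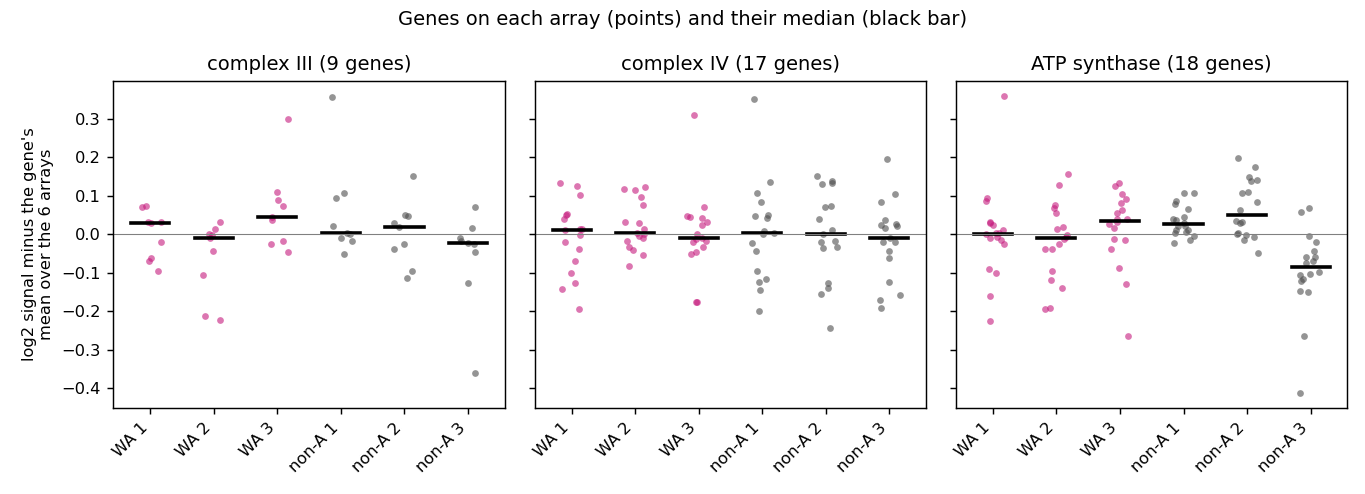
Log2 signal of each gene minus its mean over the 6 arrays, by array and complex, with the median of the complex as a black bar; WA, white adipose and non-A, non-adipose, with replicate numbers. The ATP synthase median is lowest in non-adipose replicate 3, at -0.086, and highest in non-adipose replicate 2, at 0.049.

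The genes around these complexes gave no call either, with no gene on any of the 7 lists past the adjusted threshold by limma. At an unadjusted p under 0.05 there were 1 higher and 2 lower over all the lists, beside 1.66% of all genes higher and 2.13% lower. Of 22 complex IV assembly genes, 12 were higher and 10 lower, with a median difference of 0.025. Cox20, which helps to mature the mitochondrially encoded subunit Cox2, gave 9.26, 9.38 and 9.35 in white adipose and 9.19, 9.05 and 9.09 in non-adipose tumours. Its difference of 0.22 (SE 0.068) had a limma p of 0.0176 and an adjusted p of 0.936. Cmc1, another complex IV assembly gene, differed by 0.16 (SE 0.072). The groups did not overlap for Cox20 and Cmc1, the only 2 such genes of this list of 22, beside 7.31% of all genes.

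Of 6 complex III assembly genes, 3 were higher and 3 lower, with Uqcc3 at 0.20 (SE 0.095) and Uqcc1 at -0.096 (SE 0.067). Of 5 ATP synthase assembly genes that are not members, 3 were higher and 2 lower, with Fmc1 at -0.097 (SE 0.060) and Atpaf2 at -0.077 (SE 0.11). The groups did not overlap for 1 of the 5, Fmc1, beside 7.31% of all genes. All 4 complex II genes had a higher mean in white adipose tumours, with a median of 0.083, Sdhb at 0.12 (SE 0.072) and Sdha at 0.13 (SE 0.079). None of these was at an unadjusted p under 0.05. All 4 carriers of adenine nucleotides and phosphate had a lower mean, with a median of -0.031. Slc25a5, an ADP and ATP carrier gene, was at -0.19 (SE 0.11) and the phosphate carrier Slc25a3 at -0.050 (SE 0.055). Of 6 cytochrome c and partner genes, 3 were higher and 3 lower, with Higd2a at 0.12 (SE 0.17) and Higd1a, a hypoxia-induced gene, at -0.20 (SE 0.31). The 6 mitochondrially encoded subunits of these complexes were also looked up. None was found among the 22180 genes by the symbols used, so they have no values here.

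Regulators of mitochondrial gene expression had 4 higher and 7 lower of 11, with a median difference of -0.080. Nrf1, nuclear respiratory factor 1, a transcription factor for many respiratory chain genes, gave 7.47, 7.35 and 7.31 in white adipose and 7.61, 7.65 and 7.49 in non-adipose tumours. Its difference of -0.20 (SE 0.075) had a limma p of 0.0348 and an adjusted p of 0.936. Pprc1, a coactivator gene related to Ppargc1a, gave 8.20, 8.13 and 8.05 in white adipose and 8.53, 8.27 and 8.28 in non-adipose tumours, a difference of -0.23 (SE 0.093, limma adjusted p = 0.936). The groups of each did not overlap, beside 7.31% of all genes, and neither passed over all genes. They were the only genes of this list at an unadjusted p under 0.05.

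The NRF1 motif was looked up in the promoters of the members because Nrf1 had the smallest p among the regulators. RefSeq promoter windows of GRCm38.p6 matched 32 of the 44 members. The motif, GCGCA and GCGC with any 1 base between them, was searched on both strands of the 250 bases before each annotated start. It was found in 5 of the 32, or 15.6%, and in 4.23% of 27025 genes with a window. Members with it were Atp5c1, Atp5g2, Atp5h, Atp5k and Cox6a1. Their log2 differences ran from -0.059 to 0.055, 3 higher and 2 lower in white adipose tumours, with a median of 0.0051, and the other members with a window had a median of -0.010. The 4 windows that lie wholly outside the annotated gene are shown, 5′ to 3′ along the gene's strand, with the motif in capitals, since they carry the letters compared here. The matching window of Atp5c1 overlaps the annotated gene and is not printed.
Atp5g2, chr15:102671048-102671297, minus strand: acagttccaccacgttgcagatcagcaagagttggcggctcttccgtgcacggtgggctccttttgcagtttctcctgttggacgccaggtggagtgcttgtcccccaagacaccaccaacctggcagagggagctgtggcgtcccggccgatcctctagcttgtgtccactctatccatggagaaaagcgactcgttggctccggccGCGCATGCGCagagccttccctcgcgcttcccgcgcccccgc
Atp5h, chr11:115419920-115420169, minus strand: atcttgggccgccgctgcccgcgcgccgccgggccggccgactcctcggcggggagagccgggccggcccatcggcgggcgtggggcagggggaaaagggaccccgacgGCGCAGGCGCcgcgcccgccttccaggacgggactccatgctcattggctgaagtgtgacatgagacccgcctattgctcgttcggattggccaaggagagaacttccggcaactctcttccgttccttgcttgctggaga
Atp5k, chr5:108434400-108434649, minus strand: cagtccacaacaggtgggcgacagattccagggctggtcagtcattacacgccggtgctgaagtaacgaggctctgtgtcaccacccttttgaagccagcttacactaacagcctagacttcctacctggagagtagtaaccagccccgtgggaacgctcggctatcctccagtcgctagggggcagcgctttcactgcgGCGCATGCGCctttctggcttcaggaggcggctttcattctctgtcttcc
Cox6a1, chr5:115348959-115349208, minus strand: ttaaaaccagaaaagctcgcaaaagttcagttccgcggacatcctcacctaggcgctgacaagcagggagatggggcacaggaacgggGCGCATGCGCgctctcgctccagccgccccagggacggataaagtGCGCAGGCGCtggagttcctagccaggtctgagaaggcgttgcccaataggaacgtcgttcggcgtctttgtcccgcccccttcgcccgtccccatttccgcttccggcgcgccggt

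Atp5g2 held the motif with its first base 42 bases before the start, Atp5k 50 bases before and Atp5h 141 bases before. Cox6a1 held it at 162 and 117 bases before the start. A shorter ETS motif, CCGGAAG, the kind bound by GABPA, was present in 8 of the 32 members and in 7.83% of all genes, and overlapped no NRF1 match in the windows shown. Members with the ETS motif had a median difference of -0.036, with 3 higher and 5 lower. The CCAAT box, CCAAT, and the TATA box, TATAAA, were also searched for. CCAAT was found in 17 of the 32 members, or 53.1%, and in 37.5% of all genes with a window. TATAAA was found in 3 of the 32, or 9.4%, and in 14.3% of those genes. A match is only these letters in this window.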

How the data were processed

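Total RNA of 6 tumours, 3 from each injection site, was labelled as biotin cDNA with the WT PLUS kit and hybridised to 6 Affymetrix whole-transcript arrays, per the labels' protocols. The deposited log2 values, 41345 probe sets in 6 columns, run from 0.973 to 13.6. The submitters' processing notes name Affymetrix Expression Console; its version and the background correction, summarisation and normalization behind the values have no source here. Detection calls were not used here, and slides and scan dates were not analysed, so array batches were not tested.

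Probe sets with exactly 1 gene symbol in the platform annotation were kept (23521), and the probe set with the highest mean over the 6 arrays represented a gene, which left 22180 genes. Members were the symbols that start with Uqcr, Cox4, Cox5, Cox6, Cox7, Cox8 or Atp5, plus Cyc1. White adipose was compared with non-adipose in every gene by limma's lmFit and eBayes, without trend or robust options (limma 3.58.1, R 4.3.3), with Benjamini-Hochberg adjustment over all 22180 genes and a threshold of 0.05. The fit was run on 10 simulated data sets with 200 changed genes each and independent normal noise, a simpler setting than real arrays. There, 36.2% of changes of 0.5 log2 and 87.6% of changes of 1 log2 passed the adjusted threshold. Smaller changes can thus be missed at this sample size. Standard errors and 95% confidence intervals are limma's moderated ones, and 6 arrays limit their precision.

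Members, gene lists and tests were chosen with earlier results of these data known. Values in every array are given for the 3 members with the smallest p in each complex, for tissue-restricted isoforms and most of their common counterparts, and for the 2 members with the largest spread within groups in each complex; of each pathway list the 2 genes with the smallest p are named. Members named beyond this were chosen after their values were seen, as was the limit of 0.5 for intervals. Alternatives covered scaling, dim genes, the choice of probe set, the variance model, array weights, the replicate number as a block and leaving out each array. Sequences are RefSeq promoter windows of GRCm38.p6.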

Additional observations from a re-analysis of the deposited data

How the results depend on the processing

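No member passed the adjusted threshold of limma under any alternative, and neither did any other gene. Of 567 member values under the alternatives, 505 kept their direction and 62 reversed it, in 28 members, whose reported differences were at most 0.113 in size. Reversed values with array medians subtracted were Atp5b at -0.0032, Atp5h at -0.016, Atp5mpl at -0.0031, Cox7b2 at -0.018, Cox8b at -0.0066 and Uqcrh at -0.0037. With array weights they were Atp5j at 0.0056, Cox4i2 at 0.0071, Cox5a at 0.010, Cox7a2 at 0.0034 and Cox7b2 at -0.015. With quantile normalization they were Atp5h at -0.010, Cox5a at 0.020, Cox7a2 at 0.0018 and Cox8b at -0.00082. With the mean of all probe sets they were Atp5h at -0.0058, Cox5b at -0.064 and Cox7b at -0.081. Leaving out 1 array at a time reversed genes over these ranges: Atp5b -0.012 to 0.045, Atp5c1-ps -0.13 to 0.045, Atp5d -0.069 to 0.014, Atp5e -0.11 to 0.037, Atp5h -0.039 to 0.057, Atp5j -0.11 to 0.029, Atp5j2 -0.15 to 0.11, Atp5k -0.13 to 0.022, Atp5l -0.11 to 0.049, Atp5md -0.077 to 0.036, Atp5mpl -0.051 to 0.065, Atpaf2 -0.18 to 0.0085, Cox4i1 -0.0065 to 0.070, Cox4i2 -0.10 to 0.023, Cox5a -0.031 to 0.025, Cox6a1 -0.026 to 0.14, Cox7a1 -0.025 to 0.014, Cox7a2 -0.082 to 0.034, Cox7b -0.014 to 0.21, Cox7b2 -0.12 to 0.071, Cox7c -0.11 to 0.045, Cox8b -0.045 to 0.061, Cox8c -0.12 to 0.047, Cyc1 -0.017 to 0.071, Higd1a -0.49 to 0.12, Higd2a -0.0063 to 0.27, Uqcrb -0.017 to 0.18, Uqcrh -0.026 to 0.057, Uqcrh-ps1 -0.21 to 0.14, Uqcrq -0.13 to 0.018. The complex IV median was -0.018 with array medians subtracted, 0.014 with dim genes left out, -0.010 with the mean of all probe sets and 0.045 without tissue-restricted isoforms. With 1 array left out, medians ran from -0.023 to 0.044 for complex III, 0.0031 to 0.034 for complex IV and -0.066 to 0.022 for ATP synthase. Members at an unadjusted p under 0.05 numbered 1, Cox6a2, both with array medians subtracted (-0.29, beside 3.93% of all genes at that p) and with quantile normalization (-0.29, beside 3.71%), and 0 to 2 with 1 array left out (2.89% to 8.12%). Members without overlap numbered 3 with array medians subtracted (9.83% of all genes), 5 with quantile normalization (10%) and 3 to 6 with 1 array left out (14.1% to 23.8%). Intervals within 0.5 of 0 numbered 39 to 40 with 1 array left out. The causes were not tested. Same-numbered arrays had correlations of deviations of 0.142, 0.064 and 0.064. White adipose replicates 1 and 3 correlated best with the non-adipose array of their own number, and replicate 2 with number 3. With 3 arrays a group these values cannot decide whether the numbers pair arrays. The labels name no pairing, and the main fit used none. With the replicate number as a block, 0 members passed and 0 were at an unadjusted p under 0.05. The medians stayed at 0.018, 0.0030 and -0.022 for complex III, complex IV and ATP synthase. Of all genes, 4.87% were at that p with the block and 3.79% without it. With 3 arrays a group, and no detection calls, small differences in dim genes such as Cox7b2 were not detectable.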

Other observations

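Uqcr10 and Cox6c, which encode small subunits of complexes III and IV, had only probe sets shared with another gene and so are not among the 44 members. These values were chosen after they were seen and carry no test. The Uqcr10 probe set, shared with Gm6293, gave 6.0707, 6.0274 and 6.3247 in white adipose and 5.869, 5.9969 and 5.9999 in non-adipose tumours. The difference was 0.19 and the groups did not overlap, beside 7.31% of the 22180 genes with a probe set of their own. The brighter Cox6c probe set, shared with Gm6265, gave 10.65, 10.88 and 10.91 in white adipose and 10.69, 10.77 and 10.63 in non-adipose tumours, a difference of 0.12, and the groups overlapped. The dimmer Cox6c probe set, also shared with Gm6265, differed by 0.11, and a probe set of Uqcrb shared with Gm10767 by 0.20. In both the groups overlapped. The signals of a gene and of its partner on such a probe set cannot be told apart.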
